A study of Mus musculus with 28 samples.

Results

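Retinal microglia were examined for 6 genes of the interferon system: the interferon genes Ifnb1 and Ifng, the type I interferon receptor genes Ifnar1 and Ifnar2, and the interferon gamma receptor genes Ifngr1 and Ifngr2. The genes were taken by symbol, and all 6 were present among the 40021 genes of the deposited table. The cells were live tdTomato hi microglia, 600 from each of 28 single retinas, sorted from heterozygous male Cx3cr1CreER:R26-tdTomato mice on a C57BL/6 background. In this line the fractalkine receptor gene drives a tamoxifen-dependent Cre that switches on the tdTomato reporter, so every group carried the transgenes and every group had received topical tamoxifen, at 4 to 5 weeks of age and 4 weeks before injection. Endotoxin-induced uveitis (EIU) followed 10 ng of lipopolysaccharide (LPS), a bacterial product sensed by toll-like receptor 4, given into the vitreous. Of the retinas 10 were naïve, and 6, 5 and 7 were taken 4 h, 18 h and then 2 weeks after LPS. Experiment 1 gave 6, 3, 4 and 4 of these retinas and experiment 2 gave 4, 3, 1 and 3. A group injected with vehicle was not analysed here, so the injection and the LPS cannot be told apart, and the sources used here do not say which retinas came from the same mouse. P-values therefore measure the spread between retinas, some of which may share an animal.

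Interferon beta, encoded by Ifnb1, is the type I interferon that macrophages and microglia make soon after toll-like receptor 4 is engaged. It binds a receptor built of the IFNAR1 and IFNAR2 chains, which signals through the kinases JAK1 and TYK2 to a set of interferon-stimulated genes. Interferon gamma, encoded by Ifng, is made mainly by natural killer (NK) and T cells and binds a receptor built of IFNGR1, the ligand-binding chain, and IFNGR2, which brings in JAK2. Each receptor needs both of its chains.

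Ifnb1 lies on chromosome 4 (GRCm38, 88522025 to 88522774, minus strand) as a single exon of 750 bases. The 3 receptor genes Ifnar2 (91372783 to 91405589), Ifnar1 (91485238 to 91507441) and Ifngr2 (91547072 to 91565623) lie on the plus strand of chromosome 16 within 192.8 kb, together with Il10rb, which encodes a chain of the interleukin 10 and interferon lambda receptors. Ifngr1 (19591949 to 19610229) and Ifng (118441046 to 118445892) lie apart on the plus strand of chromosome 10. Ifnar2 overlaps the protein-coding gene Gm21970 on the same strand, so its reads may have been divided between both genes and its level is uncertain. The stretch of the Ifnb1 promoter before the transcription start is shown because Ifnb1 was the gene that changed. The 100 bases run from base 150 to base 51 before the RefSeq start and are read on the minus strand of GRCm38. Capitals mark matches to AANNGAAA, the core letters bound by interferon regulatory factors, and to GGANNTTCC, a kappa B motif.
Ifnb1, chr4:88522845-88522944: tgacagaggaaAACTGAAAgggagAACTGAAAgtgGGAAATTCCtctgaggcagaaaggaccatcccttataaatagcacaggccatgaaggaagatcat

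Both strands of the promoters from 250 bases before to 50 bases after each start were searched, and all 6 genes had an entry in RefSeq. The kappa B motif GGANNTTCC was found in the promoters of Ifnb1 and Ifngr2 and in 4.3% of 32851 promoters. AANNGAAA was found in those of Ifnb1, with 3 matches, and Ifng, with 1, and in 23.9% of all promoters. The letters TTCNNNGAA, a gamma-activated site, were found in those of Ifng, Ifnar2 and Ifnar1 and in 8.3% of all promoters. Neither GAAANNGAA, the core of an interferon-stimulated response element, nor the AP-1 motif TGANTCA was found in any of the 6 windows, while 8.6% and 7.8% of all promoters held them.

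The values are reads scaled for transcript length and sequencing depth (RPKM), so that the levels of different genes can be set side by side. Retinas had 7510000 to 19700000 alignments, and 3 alignments correspond to an RPKM of 0.203 to 0.533 for Ifnb1 and of 0.039 to 0.102 for Ifnar1. Amplified reads without molecular identifiers are not independent molecules, so these limits cover counting error only. Between 6552 and 11825 genes per retina reached an RPKM of 1, and 4 retinas (naïve 3, naïve 4, 18 h 4 and 2 weeks 1) had fewer than 8000. All 10 microglial marker genes were detected in every group, and their summed RPKM was 6680 to 14900 in naïve retinas, 2320 to 8730 (4 h), 4150 to 8580 (18 h) and 7980 to 15700 (2 weeks). Rod photoreceptor genes, 9 of 9, were also present, with sums of 2410 to 6230, 1590 to 5830, 1730 to 2800 and 2870 to 5780 in the same order of groups. In such sorted pools fewer cells of a type and less RNA per cell cannot be told apart.

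In naïve retinas the 4 receptor genes were expressed at different levels, Ifng was listed at 0 and Ifnb1 was listed at 0 in most retinas. Ifngr1 had the highest median RPKM, 251 (range 104 to 399), followed by Ifnar2 at 55.6 (26.2 to 73.7), Ifngr2 at 22.7 (13.4 to 84.8) and Ifnar1 at 4.51 (0.115 to 14.0). Neighbouring genes in this order were then compared in the same 10 retinas that gave the order, and the p-values do not account for that choice. Within a retina, Ifngr1 exceeded Ifnar2 by a mean of 2.16 on the log2(RPKM + 1) scale (SD 0.45, higher in 10 of 10 retinas, exact sign-flip permutation test, two-sided, adjusted p = 0.0039). Ifnar2 exceeded Ifngr2 by 0.94 (SD 0.64, 9 of 10 retinas, exact adjusted p = 0.0052), and Ifngr2 exceeded Ifnar1 by 2.39 (SD 1.00, 10 of 10 retinas, exact adjusted p = 0.0039). The same order of the 4 receptor genes held in 9 of 10 naïve retinas, in 4 of 6 (4 h), in 5 of 5 (18 h) and in 6 of 7 (2 weeks). The chain listed lowest thus belonged to the type I receptor and the chain listed highest to the gamma receptor.

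Ifnb1 was listed at 0 in 7 of 10 naïve retinas, and the others had an RPKM of 2.52 (naïve 2), 19.3 (naïve 6) and 9.63 (naïve 7). These values rest on about 14, 164 and 90 alignments, so they exceed the limit that a count of 0 allows. The level of Ifnb1 was below that of Ifnar1 in 8 of the 10 naïve retinas, with a mean log2 difference of 1.41 (SD 1.74, exact sign-flip permutation test, adjusted p = 0.031). The order of Ifnar1 and Ifnb1 was the only one of the 4 neighbouring pairs to lose its call with a pseudocount of 10, at a difference of 0.29 (exact adjusted p = 0.18).

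At 4 h after LPS, Ifnb1 was above 0 in all 6 retinas. The values were 65.2, 9.71 and 26.0 in experiment 1 and 522, 269 and 307 in experiment 2. Of the 6 retinas, 5 lay above every naïve retina, while the lowest, 9.71, lay below naïve 6 and just above naïve 7. In each of the 3 retinas of experiment 2, Ifnb1 exceeded all 4 receptor genes, and it exceeded Ifnar1 in all 6. The log2 fold change from naïve retinas was 5.64 (standard error 0.72, 95% interval 4.17 to 7.11, adjusted p = 1.1e-06 from limma), on the log2(RPKM + 1) scale, where the change of a gene at 0 in most naïve retinas is understated. Ifnb1 was the only one of the 5 genes tested to pass the thresholds (adjusted p up to 0.05, fold change of 2 or more), where 8.08% of the 13164 genes tested passed, 3.68% higher and 4.39% lower. Ifng did not reach the filter on low values. Ifnb1 reached an RPKM of 1 in 10 retinas, among them all 6 at 4 h, and without those it would not have met the filter. With no filter on low values, Ifnb1 also passed at 4 h, at the same log2 fold change of 5.64. In the same 6 retinas the summed RPKM of 8 neutrophil markers was 0 to 0.264 and that of 7 monocyte markers was 0.0505 to 15.5.

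By 18 h Ifnb1 was listed at 0 in all 5 retinas, and at 2 weeks it was listed at 0 in 6 of 7 and had an RPKM of 4.88 in the other (2 weeks 5, about 51 alignments). At these depths 3 alignments would have given at most 0.345 at 18 h and 0.403 at 2 weeks. Against 4 h retinas, Ifnb1 was lower at 18 h (limma, adjusted p = 2.6e-06) and at 2 weeks (adjusted p = 1.0e-06), where 5.42% and 6.09% of all genes passed. It was the only one of the 5 genes to pass in either comparison. Against naïve retinas, none of the 5 genes passed at 18 h, where 4.69% of all genes passed, 2.84% higher and 1.85% lower. None passed at 2 weeks either, where 0.0076% of all genes did, or between 2 weeks and 18 h, where 2.65% did. At an unadjusted p under 0.05 the numbers were 1 of 5 at 18 h (Ifngr1), 0 at 2 weeks, and 1 between 2 weeks and 18 h (Ifngr1), where 17.5%, 2.87% and 13.9% of all genes had such a p. All comparisons with naïve retinas share the same 10 naïve retinas.

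**Figure D1:**
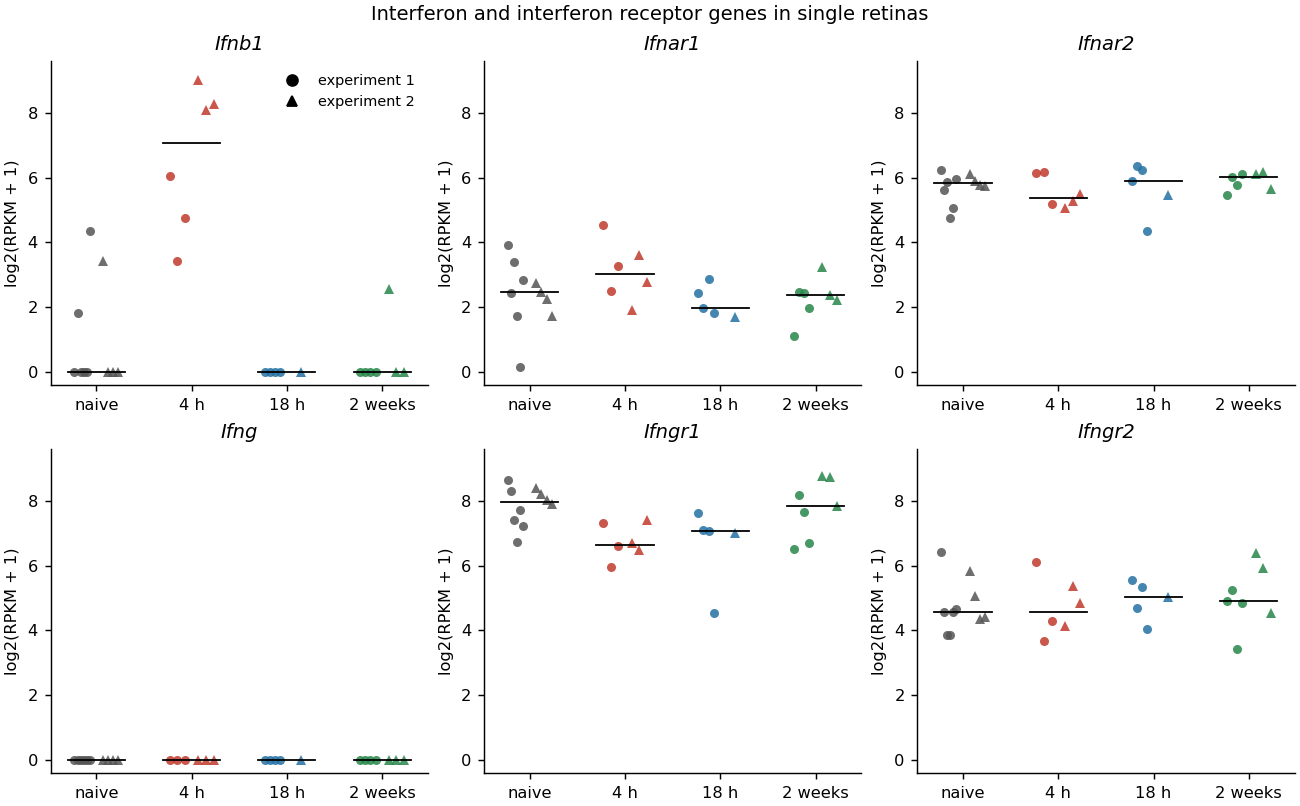
RPKM of the 6 genes on the log2(RPKM + 1) scale in each of 28 retinas, by group, with experiment 1 as circles and experiment 2 as triangles and the group median as a line. Ifnb1 was above 0 in all 6 retinas at 4 h, higher in experiment 2 than in experiment 1, and was at 0 in all 5 retinas at 18 h, whereas Ifng was listed at 0 in every retina.

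Ifnb1 rose in both experiments and had its higher values in experiment 2. The change at 4 h was called in each, with a log2 fold change of 3.72 in experiment 1 (standard error 0.84, limma adjusted p = 0.0047) and of 7.61 in experiment 2 (standard error 0.91, adjusted p = 3.6e-06), where 3.94% and 1.25% of all genes passed as higher. The mean RPKM at 4 h was 33.6 ± 28.5 (SD, n = 3) in experiment 1 and 366 ± 136 (SD, n = 3) in experiment 2, a ratio of 10.9, and the retinas did not overlap. The difference between the changes was 3.89 on the log2 scale (standard error 1.23, 95% interval 1.35 to 6.43, unadjusted p = 0.0040), but it did not pass the adjustment over all genes (limma adjusted p = 0.48), where 0.0988% of genes passed. It passed only with a pseudocount of 10, at 3.33 (adjusted p = 6.7e-04). The 4 h retinas alone differed by 3.72 (standard error 0.97, limma adjusted p = 0.13), where 0.258% of genes passed, and an exact permutation test of 3 against 3 retinas gave p = 0.10, the smallest it can give. Within experiments, exact permutation tests of Ifnb1 against naïve gave p = 0.048 for experiment 1 and p = 0.057 for experiment 2, the latter the smallest that 3 against 4 retinas allow, and neither passed adjustment over the 10 tests of 5 genes and 2 experiments (adjusted p = 0.14 for both). None of the other 4 genes passed in the fit of both experiments or in the exact tests.

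The other interferon genes were below an RPKM of 1 in most retinas. The table held 13 of the 18 listed other interferon symbols, none of which reached the filter, and 1 was listed at 0 in every retina. Only 3 had an RPKM of at least 1 in any retina, and each time this was a retina at 4 h. Ifna4 had 11.2 and Ifna2 had 7.21 in the retina with the highest Ifnb1 (4 h 4), Ifna4 had 1.6 in another of experiment 2 (4 h 6), and Ifnk had 5.06 in 4 h 2 of experiment 1. Interferon alpha genes are near-identical to one another, so reads may have been divided among them and the split between Ifna2 and Ifna4 is uncertain.

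Ifng was listed at 0 in all 28 retinas, and 3 alignments would have given an RPKM of 0.126 to 0.331. The markers of NK and T cells, the usual source of interferon gamma, were few outside 18 h. Their summed RPKM over 15 genes was 0 to 0.804 in naïve retinas and 0 to 2.32 at 4 h, reached 8 to 124 at 18 h, and was 0.259 to 8.25 at 2 weeks. At 18 h all 15 were above 0 in some retina and 8 reached an RPKM of 1, with the highest median for Nkg7, a granule protein of cytotoxic lymphocytes, at 12.1. Ifng was thus not detectable at this depth in the retinas that held these markers. At 18 h the markers of neutrophils had a summed RPKM of 0 to 17.1 (4 of 8 at an RPKM of 1 in some retina) and those of monocytes of 0.228 to 49.5 (5 of 7). The 6 plasmacytoid dendritic cell markers in the table, of which Siglech, Bst2 and Irf8 are also microglial, had a summed RPKM of 208 to 444 in naïve retinas, 136 to 292 at 4 h, 337 to 718 at 18 h and 266 to 514 in the 2-week group. The median of Bst2, itself an interferon-stimulated gene, was 85.9 in naïve retinas and 458 at 18 h, and that of Irf8 was 15.1 and 20.3. The medians of Siglech (197.5 and 19.6) and Tcf4 (2.89 and 1.45) were lower at 18 h, so these markers did not move together. Ly6d was at 0 in every retina, and Ccr9 was at most 0.356. The part of these cell types in the results was not tested.

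Of the receptor genes, Ifngr1 had the lowest values relative to naïve retinas, without passing the adjusted threshold. Ifngr1 encodes the chain that binds interferon gamma. At 4 h its RPKM was 159, 60.7 and 96.0 in experiment 1 and 102, 88.0 and 168 in experiment 2, and 4 of the 6 retinas lay below every naïve retina. At 18 h it was 198, 137, 133, 22.1 and 127, with 1 of 5 retinas below every naïve retina. At 2 weeks the range, 91.5 to 437 with a median of 228, spanned that of naïve retinas. The log2 fold change was -1.12 at 4 h (standard error 0.40, 95% interval -1.94 to -0.30, limma adjusted p = 0.085) and -1.19 at 18 h (standard error 0.43, 95% interval -2.06 to -0.32, adjusted p = 0.11). At 2 weeks it was -0.08 (95% interval -0.86 to 0.70).

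The value for Ifngr1 at 4 h lay close to the threshold, and alternatives moved it to either side. It was -1.32 (limma adjusted p = 0.0028) without the 4 retinas with fewer than 8000 genes, -1.25 (adjusted p = 0.044) without naïve 4 and -1.12 (adjusted p = 0.031) without 18 h 4, the retina with the lowest Ifngr1 of all, at 22.1. It did not pass with experiment 1 alone (-1.05, adjusted p = 0.53), without a filter on low values (-1.12, adjusted p = 0.22) or without 4 h 2 (-0.96, adjusted p = 0.20). Nor did it pass with a replicate block, the running number in the label of a retina (-0.98, adjusted p = 0.18). It passed in a fit of experiment 2 alone (-1.28, adjusted p = 0.012), while the same difference in the fit of both experiments did not pass (adjusted p = 0.44). It also passed with the experiment as a covariate and with each retina rescaled to the same summed RPKM, a scaling under which the median of all genes was -0.28 in place of -0.11 (4 h) and -0.26 in place of -0.08 (18 h) on the log2 scale. Within experiments the differences were -1.05 (exact permutation p = 0.071) and -1.28 (exact permutation p = 0.057), both with an adjusted p of 0.14. The summed RPKM of the 10 microglial markers was lower in the same groups, with medians of 10500 (naïve), 6110 (4 h), 5740 (18 h) and 12300 (2 weeks), and its part in the result was not tested.

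Ifngr2, which encodes the signalling chain of the same receptor, stayed within the range of naïve retinas in 5 of 6 retinas at 4 h and in 5 of 5 at 18 h. Its median RPKM was 22.7 (naïve), 23.2 (4 h), 31.7 (18 h) and 29.0 (2 weeks). The log2 fold change was -0.02 at 4 h (95% interval -0.90 to 0.87) and 0.18 at 18 h (95% interval -0.76 to 1.11). By 2 weeks it was 0.28 (95% interval -0.56 to 1.13). These intervals do not exclude changes close to 2-fold.

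The ratio of Ifngr2 to Ifngr1 within a retina, which does not depend on how a retina was scaled apart from the pseudocount, rose after LPS. The log2 ratio was -3.10 ± 0.53 (SD, n = 10) in naïve retinas, -2.0 ± 0.67 (n = 6) at 4 h, -1.73 ± 0.73 (n = 5) at 18 h and -2.74 ± 0.89 (n = 7) at 2 weeks. Values ranged from -3.72 to -2.22 in naïve retinas, from -2.55 to -1.10 at 4 h and from -2.41 to -0.49 at 18 h, so both EIU groups overlapped with naïve retinas. At 4 h most retinas (4 h 2, 4 h 3, 4 h 4 and 4 h 6) lay within the naïve range, and at 18 h only 18 h 2 did. The difference from naïve was 1.10 at 4 h (exact permutation test, two-sided, adjusted over 6 tests, p = 0.013) and 1.37 at 18 h (exact adjusted p = 0.0080). At 2 weeks it was 0.36 (exact adjusted p = 0.43). The calls at 4 h and 18 h also held with pseudocounts of 0.1 and 10, without the 4 retinas with fewer than 8000 genes, and with each retina left out. With experiment 1 alone the differences were 1.09 and 1.35 and did not pass (exact adjusted p = 0.21 and 0.11).

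The type I receptor chains did not pass in any comparison. Ifnar1, whose product works with TYK2, had values of 22.2, 4.62 and 8.75 in experiment 1 and 2.80, 11.3 and 5.90 in experiment 2 at 4 h, with 1 of 6 above every naïve retina. Its log2 fold change was 0.74 at 4 h (95% interval -0.16 to 1.64, limma adjusted p = 0.36) and -0.21 at 18 h (95% interval -1.16 to 0.75). For the 2-week group it was -0.11 (95% interval -0.96 to 0.75). Ifnar2 had a median RPKM of 55.6 in naïve retinas, 40.9 at 4 h (range 32.3 to 71.6) and 58.2 at 18 h (range 19.6 to 80.3). Its median was 64.2 in the 2-week group (range 43.4 to 71.0). Its log2 fold change was -0.14 at 4 h (95% interval -0.75 to 0.46), -0.04 at 18 h (95% interval -0.69 to 0.60) and 0.20 in the 2-week group (95% interval -0.38 to 0.78). These intervals, over both experiments, lie within a 2-fold change in either direction. By experiment the change of Ifnar2 at 4 h was 0.26 in experiment 1 (95% interval -0.59 to 1.11) and -0.60 in experiment 2 (95% interval -1.52 to 0.31). Both of those intervals reach beyond a 2-fold change. The log2 ratio of Ifnar2 to Ifnar1 was 3.33 ± 0.74 (SD, n = 10) in naïve retinas and 2.45 ± 0.86 (n = 6) at 4 h, a difference of -0.88 that did not pass (exact permutation test, adjusted p = 0.087). At 18 h and 2 weeks the differences were 0.16 and 0.31 (exact adjusted p = 0.67 and 0.43).

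**Figure D2:**
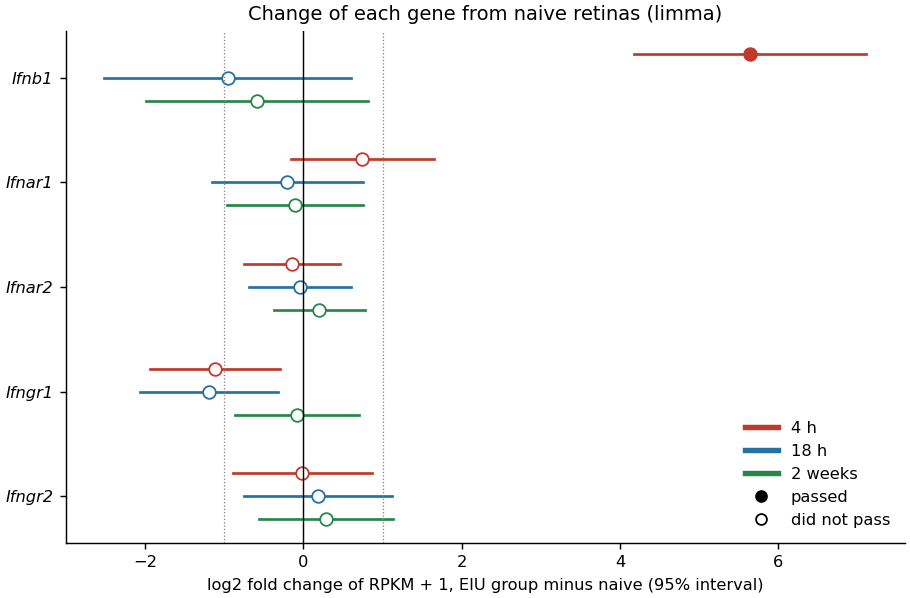
Log2 fold change of each gene from naïve retinas on the log2(RPKM + 1) scale for each EIU group, with limma's 95% intervals. Filled points passed the thresholds, open points did not, and dotted lines mark a 2-fold change. Only Ifnb1 at 4 h, at 5.64, is filled, and Ifngr1 at 4 h (-1.12) and 18 h (-1.19) lies beyond the 2-fold line without passing.

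**Figure D3:**
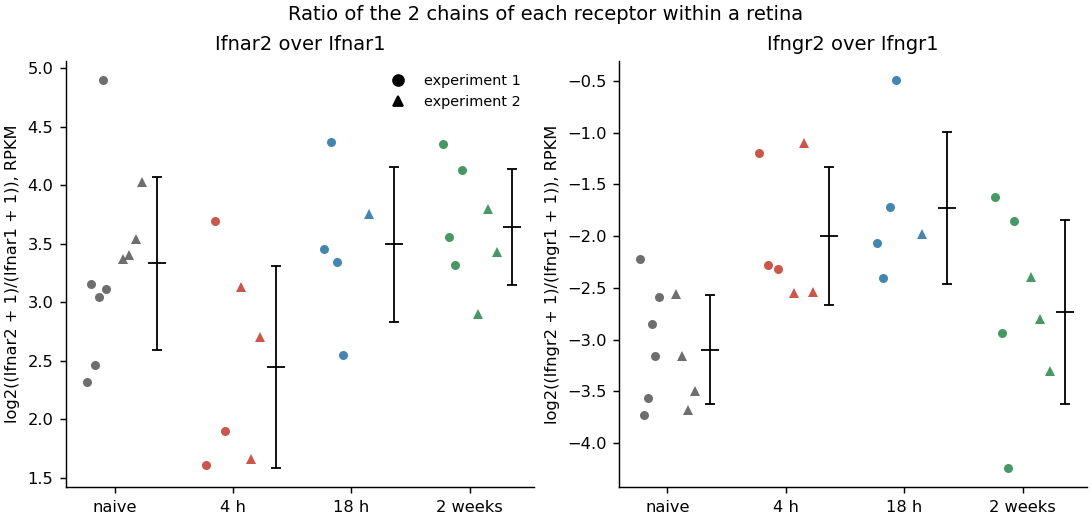
Log2 ratio of the 2 chains of each receptor within each retina, by group, with the mean and SD beside the points, experiment 1 as circles and experiment 2 as triangles. The ratio of Ifngr2 to Ifngr1 has a mean of -3.10 in naïve retinas, -2.0 at 4 h and -1.73 at 18 h, and the groups overlap. The mean of Ifnar2 to Ifnar1 is 3.33 in naïve retinas and 2.45 at 4 h, and its groups overlap too.

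The genes whose pattern over the 28 retinas was most like that of each gene were named by Pearson's r of log2(RPKM + 1), as a description across retinas that share the groups and the depth. For Ifnb1 these were Gm14023 (r = 0.900), the neutrophil chemokine gene Cxcl2 (0.883) and the histone demethylase gene Kdm6b (0.876). For Ifngr1 they were Selplg, which encodes a P-selectin ligand (0.904), Itfg1 (0.897) and Abhd12 (0.884). For Ifngr2 they were Rfng (0.896), Gm6560 (0.894) and Rab3il1 (0.894). For Ifnar1 they were the kinase gene Csnk1d (0.813), Dus3l (0.809) and Arih2 (0.803), and for Ifnar2 they were Stk16 (0.807), Cuedc2 (0.794) and Eif2ak1 (0.767).

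Among genes that lead to transcription of Ifnb1, those for parts of the LPS receptor complex changed in different directions at 4 h. Of the 27 tested inducers of interferon transcription, 6 were called higher and 2 lower, with a median log2 fold change of 0.82, where the median of all 13164 genes was -0.11 and 3.68% were called higher and 4.39% lower. The LPS co-receptor gene Cd14 rose most, with a log2 fold change of 3.82 (limma adjusted p = 6.4e-08), followed by the RNA sensor gene Ifih1 at 2.99 (adjusted p = 5.1e-07). The LPS receptor gene Tlr4 fell by 2.15 on the log2 scale (adjusted p = 9.7e-04) and its partner Ly96 by 1.33 (adjusted p = 0.024). At 18 h, 2 of the 27 were higher, Irf7 (3.05, adjusted p = 0.0060) and the kinase gene Ikbke (1.20, adjusted p = 0.011), and none was lower, where 2.84% and 1.85% of all genes were.

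Downstream of the receptors, most signalling genes did not pass, while some genes listed as negative regulators were higher. Of 7 signal transduction genes, only Jak2 was called at 4 h, at a log2 fold change of 2.24 (limma adjusted p = 0.0037), where 8.08% of all genes were called. At 18 h none was called in limma and 1 of 7 had an unadjusted p under 0.05, where 4.69% and 17.5% of all genes did. Of 9 negative regulators, 4 were higher at 4 h and none lower, where 3.68% and 4.39% of all genes were. The 4 were Socs3 (5.66), Isg15 (4.88), Socs1 (1.73) and Cish (1.61). Isg15, and Usp18 of the same list, are also counted among the type I interferon-stimulated genes described below. Socs1 and Socs3 encode inhibitors of JAK signalling. At 18 h only Isg15 of the 9 was called, at 3.55 (limma adjusted p = 8.5e-04), where 2.84% of all genes were called higher. Among the other receptor chains, Il10ra, the ligand-binding chain of the interleukin 10 receptor, was higher at 4 h (1.54, adjusted p = 0.030), and Il10rb, which lies between Ifnar2 and Ifnar1, was not called. Rack1, a scaffold protein gene linked to the type I receptor that is also a ribosomal component, was higher at 18 h (1.84, adjusted p = 1.5e-05), and Btrc, whose product takes part in turnover of IFNAR1, was not called.

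Interferon-stimulated genes were raised at both early time points, when Ifnb1 was high and also when it was at 0. Of 21 type I interferon-stimulated genes tested, 10 were called higher and none lower at 4 h, where 3.68% of all genes were higher, and the median log2 fold change was 2.10. At 18 h, 11 were higher and none lower, where 2.84% of all genes were higher, with a median of 2.31 against -0.08 for all genes. At 2 weeks none was called, and none had an unadjusted p under 0.05. Cxcl10, a chemokine gene, rose by a log2 fold change of 8.51 at 4 h (limma adjusted p = 2.7e-09) and 3.95 at 18 h (adjusted p = 0.0035), and Ifit1, an antiviral RNA-binding protein gene, by 5.91 (adjusted p = 4.0e-07) and 4.21 (adjusted p = 5.4e-04). Of 18 genes mainly induced by interferon gamma, 7 were higher at 4 h (median 1.40) and 3 at 18 h (median 0.73), beside the same shares of all genes, none was lower at either time, and Ifng was listed at 0 at both. The GTPase genes Gbp2 (4.90) and Gbp5 (3.87) led at 4 h, and Gbp2 (3.61), Gbp3 (1.77) and Gbp6 (1.67) were the 3 called at 18 h. Many genes of this list, including Irf1 and the Gbp genes, also respond to type I interferon.

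Across the 6 retinas at 4 h, the order of the experiments for interferon-stimulated genes was the reverse of that for Ifnb1. The mean log2(RPKM + 1) of the 21 type I genes was 5.00, 5.89 and 5.37 in the retinas of experiment 1 and 4.10, 4.88 and 3.37 in those of experiment 2, against 1.30 to 3.30 in naïve retinas. The 3 retinas with the lower Ifnb1 thus had the higher means, without overlap. At 18 h, with Ifnb1 at 0, the means were 4.25, 5.01, 5.10, 2.73 and 5.36, and the lowest was that of 18 h 4, which had fewer than 8000 genes.

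Counted within each experiment, 15 of the 21 type I genes were called higher at 4 h in experiment 1, with a median log2 fold change of 3.49, where 3.94% of all genes were called higher. In experiment 2, 5 of 21 were called higher, with a median of 0.40, where 1.25% of all genes were. Of the 18 genes mainly induced by interferon gamma, 10 and 2 were called higher. The share of all genes called higher was thus also lower in experiment 2, so the counts alone show no difference that is particular to these lists. In the test of the difference between the experiments, 20 of the 21 type I genes had a smaller change in experiment 2, with a median of -2.32 where that of all genes was -0.19, 10 had an unadjusted p under 0.05 (4.71% of all genes had), and only Ifit1 passed (limma, -5.40, standard error 1.03, adjusted p = 0.027). Ifit1 had an RPKM of 233, 849 and 607 at 4 h in experiment 1 and of 65.6, 179 and 30.9 in experiment 2. Naïve retinas had 0 to 3.67 (median 0, n = 6) in experiment 1 and 5.53 to 16.1 (median 7.45, n = 4) in experiment 2, a difference of 2.63 on the log2 scale that was itself called (limma adjusted p = 0.035), where 1.78% of all genes were called. Cxcl10 did not share this order, with 1495, 1353 and 1219 in experiment 1 and 2566, 1271 and 1434 in experiment 2. In naïve retinas all 21 type I genes had a higher mean in experiment 2 than in experiment 1 (median difference 0.91, where that of all genes was 0.40). The genes that reached an RPKM of 1 numbered 6552 to 11825 per naïve retina in experiment 1 and 11129 to 11429 in experiment 2. The part of this imbalance in the naïve values and in the changes from them was not tested. When only the 4 h retinas were compared, 20 of 21 were lower in experiment 2 (median -1.37 against 0.21 for all genes), 7 had an unadjusted p under 0.05 (6.65% of all genes had) and none passed in limma.

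**Figure D4:**
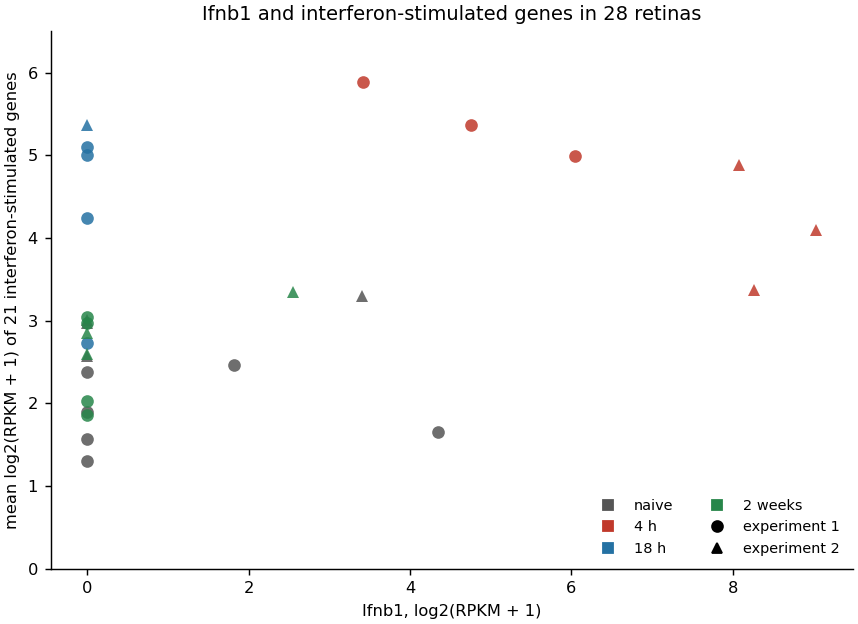
Mean log2(RPKM + 1) of 21 type I interferon-stimulated genes against log2(RPKM + 1) of Ifnb1 in each of 28 retinas, with the group as colour, experiment 1 as circles and experiment 2 as triangles. At 4 h the circles (5.00 to 5.89) lie above and to the left of the triangles (3.37 to 4.88), and 4 of the 5 retinas at 18 h lie above all naïve retinas with Ifnb1 at 0.

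**Figure D5:**
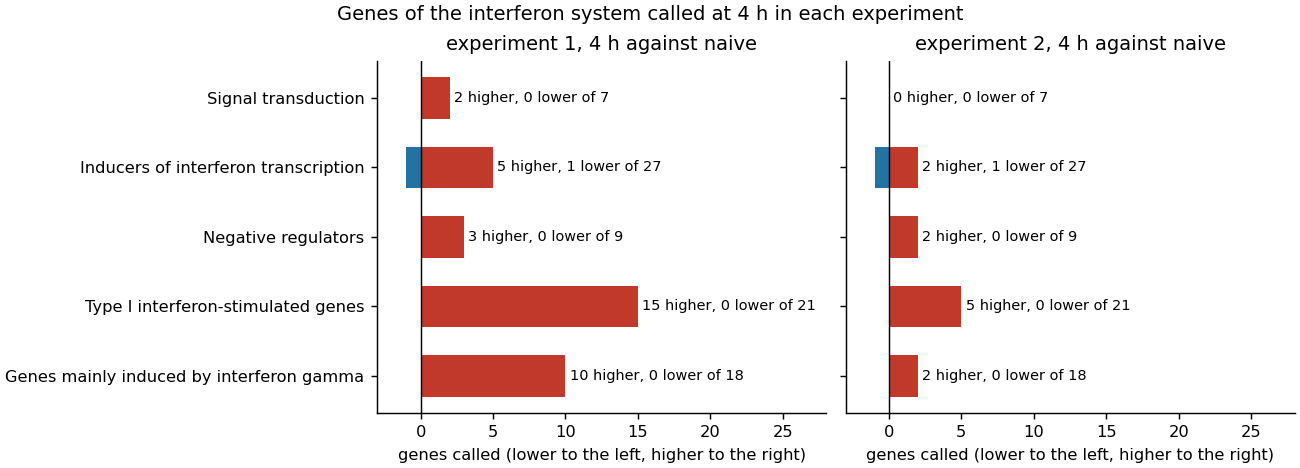
Number of genes called higher (right) and lower (left) at 4 h against naïve retinas of the same experiment, for 5 lists of the interferon system, in experiment 1 and experiment 2. Type I interferon-stimulated genes were called higher for 15 of 21 in experiment 1 and 5 of 21 in experiment 2, while over all genes 3.94% and 1.25% were called higher.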

How the data were processed

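The authors sorted cells into lysis buffer, made cDNA with a SMART-Seq v4 kit, trimmed the reads, aligned them to mm10 with STAR 2.5.3a and assigned them to Ensembl release 89 transcripts with Partek's expectation-maximisation method. They deposited RPKM values per gene and retina, with the number of alignments (7510000 to 19700000). Reads can be divided between genes by this method, so tiny values and zeros may come from the estimation itself. The authors' own tables of p-values and fold changes at 4 h and 18 h were not used.

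Values were tested on log2(RPKM + 1) with limma 3.58.1 (R 4.3.3, trended empirical Bayes) in 1 fit of the 4 groups over 28 retinas, for the 13164 genes that reached an RPKM of 1 in 5 or more retinas, with Benjamini-Hochberg adjustment. A second fit had 8 cells of group by experiment, where the difference between experiments was called on the adjusted p alone. Exact permutation tests used Python 3.11.15 and scipy 1.17.1. Lists are described by counts and medians, with no set test. Alignments behind a value were estimated from RPKM, transcript length and the alignments of the retina. The tests were checked on simulated data. Coordinates are those of GENCODE M21, and promoter sequences those of RefSeq on GRCm38.

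The 6 genes, the lists and the tests were chosen with earlier results of these data known. AANNGAAA was added after the promoter letters were seen. All 6 genes are named. From each list, the 2 largest increases and 2 largest decreases among called genes at 4 h and 18 h are named, or all where at most 5 were called. For each gene that passed the filter, the 3 genes with the highest correlation are named. Further genes named (Il10rb, Btrc, Nkg7, Siglech, Bst2, Irf8, Tcf4, Ly6d and Ccr9) were chosen after their values were seen. Alternatives were other pseudocounts, filters, scalings and covariates, a replicate block, single experiments and each retina left out. The replicate block was the running number in the label of a retina, which the sources used here do not tie to a mouse or a batch. The same number can fall in different experiments, as for naïve 4 (experiment 1) and 4 h 4 (experiment 2).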

Additional observations from a re-analysis of the deposited data

Results flagged for a closer look

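Of 19 sets of values (a gene in a group) examined for a retina far from the others, 2 stood out, each of them a set of Ifnb1. Where all other retinas are at 0, as at 2 weeks, any value above 0 stands out by this rule. A chance rate is therefore not given for sets with most values at 0. Naïve 6 had an Ifnb1 RPKM of 19.3, where the other 9 naïve retinas had 0 to 9.63. At 2 weeks, retina 5 had an Ifnb1 RPKM of 4.88, where the other 6 were all listed at 0. Its mean log2 level of 21 type I interferon-stimulated genes, 3.34, was the highest of the 7 retinas at 2 weeks, while that of naïve 6, 1.65, lay below the naïve median of 2.42.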

How the results depend on the processing

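The number of the 6 genes called at 4 h against naïve was 1, and it was 2, with Ifngr1 added, with the experiment as a covariate, with equal summed RPKM, with experiment 2 alone and, an alternative chosen after seeing the data, without retinas under 8000 genes. It was 1 to 2 with each retina left out, 2 without naïve 4 or without 18 h 4. At 18 h it was 0, and 1 with equal summed RPKM. Between 2 weeks and 4 h it was 1, and 2 with experiment 2 alone and without retinas under 8000 genes. For the difference between experiments it was 0, and 1 with a pseudocount of 10. No value reversed its direction past a threshold. With a replicate block the counts were 1 at 4 h, 0 at 18 h, 0 at 2 weeks, 1 between 18 h and 4 h, 1 between 2 weeks and 4 h and 0 between 2 weeks and 18 h. Deviations of retinas of the same number in different groups had r of -0.329 to 0.698 over 34 pairs (median 0.035, over 0.1 in 15). For other numbers r was -0.552 to 0.689 over 253 pairs (median 0.005, over 0.1 in 93). Pairs within a group were not examined, so these values cannot decide which retinas share a mouse.

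With experiment 1 alone, which leaves fewer retinas, the ratio of Ifngr2 to Ifngr1 differed by 1.09 at 4 h and 1.35 at 18 h without passing, as did the differences between neighbouring genes in the 6 naïve retinas of 2.09, 0.92, 2.24 and 1.39. With a pseudocount of 10, Ifnar1 minus Ifnb1 was 0.29 and did not pass. With each retina left out, the ratio of Ifnar2 to Ifnar1 at 4 h differed by -1.13 to -0.71 and passed in 1 of 16 cases. The alternative of experiment 2 alone was run only for limma comparisons between groups, and not for those with 18 h, which has 1 retina there. It was not run for the chain ratios or for the order of genes in naïve retinas.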
